A study of Mus musculus with 8 samples.

Results

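The genes described here are 35 genes of meiotic prophase, chosen by name for their roles in meiotic entry, sister chromatid cohesion, the chromosome axis, synapsis and recombination, out of 55487 genes in a table of RNA sequencing counts. All 35 were found in the table by symbol. The RNA came from the testes of fetal C57BL/6 mice, from cells sorted by fluorescence as germ cells; the fetal age was not given in the sources used here. All animals were Oct4-eGFP+/+, that is, they carried a green fluorescent reporter driven by regulatory DNA of Oct4 (Pou5f1), a pluripotency gene. Of the 8 libraries, 4 were labelled WT (wild-type littermates) and 4 were labelled KO (Rhox10-null, lacking a homeobox gene of the X-linked Rhox cluster). Whether each library is from its own animal is not stated, so p-values measure the spread between these samples, which may be technical.

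Meiosis makes haploid cells by pairing, recombining and separating homologous chromosomes. Retinoic acid induces Stra8 in germ cells, cohesin complexes with meiosis-specific subunits organise the chromosomes along an axis, breaks made by SPO11 are repaired from the homologue, and the synaptonemal complex zips the homologues together. In the mouse the germ cells of the fetal ovary enter this program before birth, whereas those of the fetal testis stop dividing as prospermatogonia and enter meiosis only after birth. Several genes of the program are already transcribed in fetal germ cells of both sexes, and many are held silent in other cells by DNA methylation and by a repressor complex that holds the proteins MGA, MAX, E2F6 and PCGF6.

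Promoter sequences are shown first because motifs read by members of that complex were frequent in these genes. RefSeq windows of 300 bases (GRCm38.p6, 250 before and 50 after the start site) matched 29 of the 35 genes. The E-box CACGTG, the site of MAX and MGA, was present in 7 of the 29 (24.1%) against 8.09% of all 27025 genes with a window. The E2F-type sequence GCGGGAA was present on either strand in 12 of the 29 (41.4%) against 5.29% of all genes. Both lay in the same window in 6 of the 29 (Stag3, Sycp3, Hormad1, Syce2, Tex12 and Rec114), or 20.7% against 0.514% of all genes. The sequence CNCCTCAG, known as a STRA8 motif, was present on either strand in 7 of the 29 (24.1%) against 9.12%, and overlapped an E2F-type match in Syce2 and Prdm9. The windows of these genes were rich in CpG, with a median of 13 in the upstream bases against 6 over all windows. Among all 10362 windows with at least 13 CpG, 11.4% held the E-box, 10.7% the E2F-type sequence and 9.67% the STRA8 motif, and among the 19 such windows of meiotic genes 6, 11 and 6 did. These counts are of windows and not of genes. Hormad1 and Mlh3 each enter more than once through windows a few bases apart, and those of Hormad1 hold the same matches. For the E-box and E2F-type sequence in the same window, the share among CpG-rich windows was not computed, so 0.514% is not matched for CpG. A match is a description of the letters and not a site of binding. The stretches of 30 bases around the E-box nearest the start site are given with the E-box in capitals, on the strand of the gene.
Stag3: cgcgctggagccCACGTGacaggactgcac
Hormad1: atgcgcactgcgCACGTGctgaccggagcg
Sycp3: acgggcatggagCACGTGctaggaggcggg
Sycp1: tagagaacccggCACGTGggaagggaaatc
Syce2: cgtttcattcagCACGTGctcggggcgggg
Tex12: ccgcgagactgtCACGTGgctcgcgcgctg
Rec114: gtcgtcagctatCACGTGgaggcgggcttt

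These stretches lie at chr5:138280327-138280356 (plus strand) in Stag3, chr3:95559645-95559674 (plus) in Hormad1, chr10:88459532-88459561 (plus) in Sycp3 and chr3:102936177-102936206 (minus) in Sycp1. Those of Syce2, Tex12 and Rec114 lie at chr8:84872158-84872187 (plus), chr9:50561344-50561373 (minus) and chr9:58741561-58741590 (minus). The E-box began 20 bases before the RefSeq start in Hormad1, 19 in Rec114, 43 in Sycp3, 88 in Syce2, 93 in Tex12, 94 in Sycp1 and 170 in Stag3. In the Syce2 window with the E-box, 143 upstream bases lie in annotated exons, and the stretch lies after the annotated start of the gene (84872111). Another Syce2 window, with its upstream bases at chr8:84871861-84872110, held none of the motifs. The upstream window of Stag3 lies inside exons annotated by GENCODE, which start further upstream. Its E2F-type match (capitals, reverse complement) spans the RefSeq start.
Stag3, chr5:138280495-138280524, plus strand: tatcccgtgccTTCCCGCgtttttttctaa

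Hormad1 and Stag3 are printed because both were lower in KO libraries, as described further on. Whether the motifs bear on that difference was not tested. Tex12, Sycp3, Syce2 and Rec114 also hold both sequences in a window. Their log2 fold changes, KO over WT, were -0.68, 0.37, -0.03 and -0.13, and none was called. The 250 bases upstream of Hormad1 (chr3:95559427-95559676, plus strand, GRCm38.p6) carry an E2F-type sequence 95 bases before the start and E-boxes 57 and 20 bases before it, all in capitals.
Hormad1: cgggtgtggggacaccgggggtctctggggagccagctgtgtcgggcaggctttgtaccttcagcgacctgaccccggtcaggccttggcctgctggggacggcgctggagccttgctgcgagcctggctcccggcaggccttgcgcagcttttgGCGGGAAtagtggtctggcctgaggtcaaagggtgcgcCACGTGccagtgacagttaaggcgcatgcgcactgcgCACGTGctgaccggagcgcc

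The libraries held 16346977 to 20311338 counts. Rhox10, the gene named in the genotype, had 18, 25, 19 and 17 counts in WT libraries and 14, 10, 18 and 22 in KO libraries (log2 fold change, KO over WT, -0.28, standard error 0.32, edgeR adjusted p = 0.767). A loss of its reads was not seen; the deleted stretch of the null allele is not given in the sources used here, so directions are given between libraries labelled KO and WT. The label of purified germ cells was compared with marker lists. The germ-cell markers Ddx4 (44.5 ± 3.4 CPM in WT libraries, 43.4 ± 0.971 in KO libraries; SD, n = 4; CPM is the usual depth-normalised count, with library totals scaled by edgeR's TMM factors) and Pou5f1 (10 ± 0.984 and 11.4 ± 0.772 CPM) were read in all libraries. Markers of somatic testis cells were more abundant: per kilobase of exon, Cyp17a1, an enzyme of Leydig cell steroid synthesis, averaged 474 CPM in WT libraries against 14.8 for Ddx4. The 7 Leydig and interstitial markers summed to 3520 to 3560 CPM in WT libraries and 3240 to 3260 in KO libraries, the 7 Sertoli markers to 489 to 515 and 470 to 483, and the 8 germ-cell markers to 106 to 119 and 116 to 124. The libraries thus held RNA of other testis cells, and reads of members that other cells also express cannot be assigned to germ cells. In such bulk samples, fewer cells of a type and less RNA per cell cannot be told apart.

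**Figure D1:**
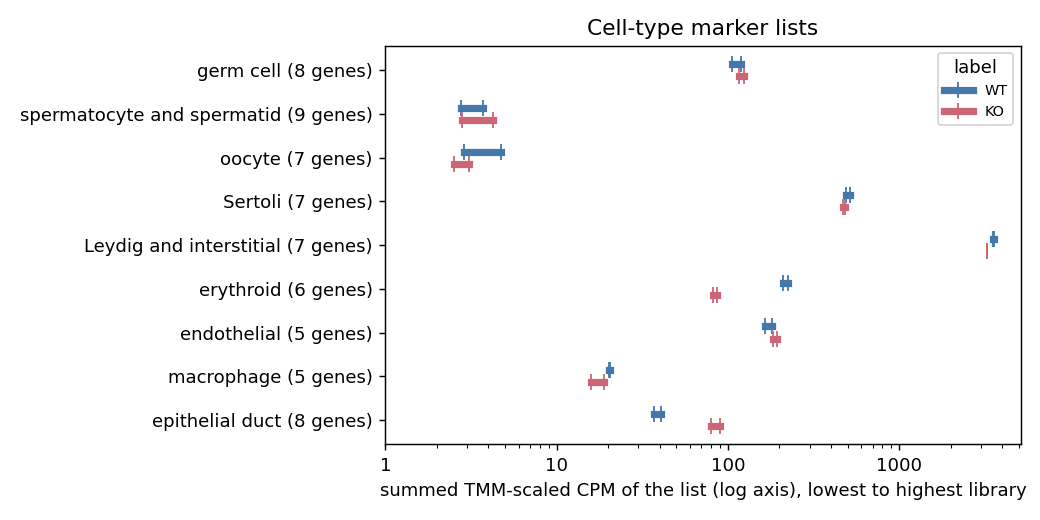
Summed TMM-scaled CPM of marker lists (horizontal log axis), from the lowest to the highest of the 4 libraries with each label. Leydig and interstitial markers lie at 3240 to 3560 CPM, germ-cell markers between 106 and 124 CPM, and markers of spermatocytes, spermatids and oocytes below 5 CPM.

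Markers of several cell types also moved with the label. The lists were chosen with earlier results of these data known, so their counts are no independent evidence of a shift. Over all genes tested, 2.35% rose and 2.80% fell. All 8 duct epithelial markers rose, their sum going from 37.0 to 41.0 CPM in WT libraries to 80.0 to 89.7 in KO libraries. Those with the smallest p were Pkhd1, Krt8 and Krt18, a cystic kidney disease gene and 2 keratin genes. Among the 6 erythroid markers 4 fell, all of them globin genes, Hba-a1 with the smallest p, and the list went from 210 to 226 CPM to 82.1 to 86.5. Among the Leydig and interstitial markers 5 of 7 fell, Cyp17a1, Cyp11a1 and Star with the smallest p, and among the Sertoli markers Aard and Ptgds fell. Among the 5 endothelial markers Kdr and Pecam1 rose, and none of the 3 macrophage markers tested, of 5 listed, passed, the sums of the list being 20.3 to 20.6 and 15.8 to 18.9 CPM. Among the germ-cell markers Dazl and Dppa3 rose and none fell. The 9 spermatocyte and spermatid markers (2.78 to 3.74 and 2.81 to 4.25 CPM in sum) and the 7 oocyte markers (2.89 to 4.75 and 2.51 to 3.07 CPM, Oosp1 at 0 in all libraries) had no called gene, but only 2 of each list had enough reads to be tested. The part of cell composition in the changes of meiotic genes was not tested.

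The meiotic genes together took a small and narrow share of the libraries. They held 0.0363 to 0.0368% of the counts in WT libraries and 0.0339 to 0.0353% in KO libraries. Their summed level was 358 to 367 CPM and 341 to 358 CPM, and without the 3 genes that passed the test it was 271 to 277 and 268 to 281 CPM. Those 3 were left out because they were called lower in these libraries, a choice that by itself brings the labels closer. Brca2, Stag3, Mlh3 and Ythdc2, the 4 most counted, made up 51.3 to 54.0% of the members' counts. Per kilobase of exon, the scale on which genes can be compared, the median member stood at 1.35 CPM in WT libraries, against 3.72 over 15299 protein-coding genes tested, and 8 members lay above that median. The 16 markers of spermatocytes, spermatids and oocytes reached at most 0.820 CPM per kilobase, and 23 of the 35 meiotic genes lay above that.

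**Figure D2:**
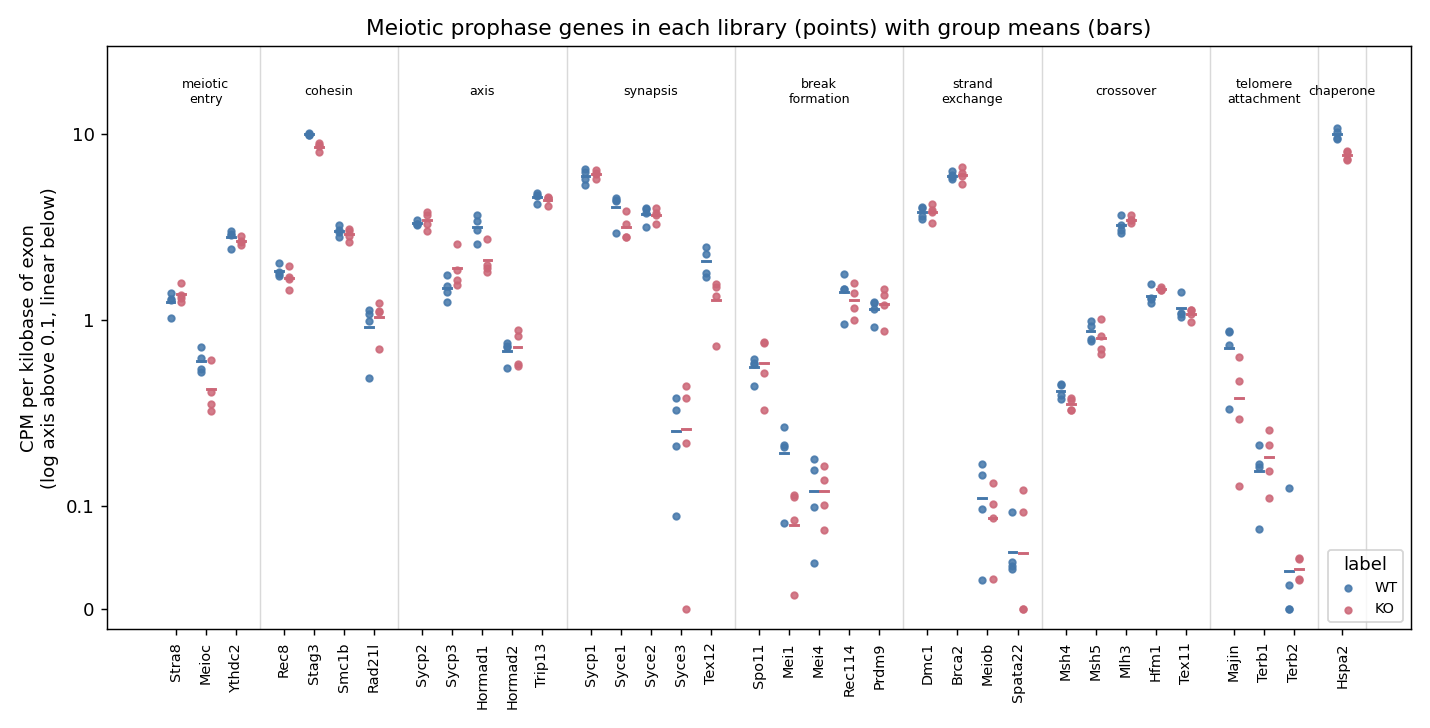
CPM per kilobase of exon of the 35 genes (vertical axis, logarithmic above 0.1 and linear below) in each library, ordered by role. Stag3 and Hspa2 stand highest, near 10, and the means of Terb2 and Spata22 lowest, below 0.1.

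Expression was uneven within each role, so that complexes were read in part. Stag3, the meiosis-specific cohesin subunit that joins the ring to its regulators, was the most abundant member at 10.1 ± 0.145 CPM per kilobase (SD, n = 4, WT libraries). The other cohesin genes were lower: the SMC subunit gene Smc1b was at 3.02 ± 0.170, and the genes of the kleisins that close the ring, Rec8 and Rad21l, at 1.83 ± 0.133 and 0.921 ± 0.296. The WT means of Stag3 and Hspa2 (10 ± 0.653) differed by less than their spread, as did those of Brca2 (6.01 ± 0.271) and Sycp1 (5.95 ± 0.522). Sycp1, which encodes the transverse filament of the synaptonemal complex, stood highest among the synapsis genes. Those of the central element proteins followed, Syce1 (4.08 ± 0.751), Syce2 (3.74 ± 0.391) and Tex12 (2.07 ± 0.373). Syce3, whose product also belongs to the central element, had 0 to 4 counts in a library.

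Genes of break formation spread from the middle to the low end of the members. Those of strand exchange spread further, from Brca2 near the top to Spata22 near the bottom. Prdm9, which marks the sites of recombination in spermatocytes and oocytes, was at 1.14 ± 0.152 CPM per kilobase in WT libraries, Rec114 at 1.41 ± 0.340 and Spo11, the gene of the enzyme that cuts the DNA, at 0.556 ± 0.0772. Mei4 and Mei1, whose products are needed for break formation, were at 0.119 ± 0.0607 and 0.192 ± 0.0773. Dmc1, the meiotic recombinase gene, was higher at 3.81 ± 0.273, whereas Meiob, encoding a single-strand DNA binding protein, had 1 to 5 counts in a library and its partner Spata22 0 to 3. The overlap of a same-strand predicted gene with 80.5% of Spata22 leaves its reads uncertain. Of the telomere attachment genes, Majin was at 0.705 ± 0.256 CPM per kilobase, Terb1 at 0.154 ± 0.0562, and Terb2 had 0 to 5 counts. A count of 0 allows up to 3 counts, or 0.149 to 0.183 CPM in these libraries, by counting error alone.

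The comparison of labels asked whether meiotic genes change in Rhox10-null cells. Of the 35 genes, 3 fell and none rose; 27 were tested and did not pass, and 5 (Syce3, Mei1, Meiob, Spata22 and Terb2) had too few reads to be tested. Over all 23190 genes tested, 2.80% fell and 2.35% rose, or 5.14% together. At an unadjusted p under 0.05 there were 7 members of 30, all lower, against 15.6% of all genes tested in either direction, and DESeq2 likewise called 3 members lower and 0 higher. The genes that fell were Stag3, the axis gene Hormad1 and the chaperone gene Hspa2, to between 0.658 and 0.856 of the WT level. The median log2 fold change was -0.04 over the 30 tested members and 0 over all genes tested, and 13 members lay above 0 and 17 below. By role, the median was -0.08 for entry, -0.09 for cohesin, 0.05 for the axis, -0.19 for synapsis, 0.02 for break formation, 0.01 for strand exchange, -0.09 for crossovers and -0.34 for the 2 telomere genes tested, with the 1 chaperone gene at -0.38. In 3 members (Stag3, Tex12 and Hspa2) every KO library lay below every WT library and in none above, against 4.72% of all genes tested in each direction and 9.44% in either.

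**Figure D3:**
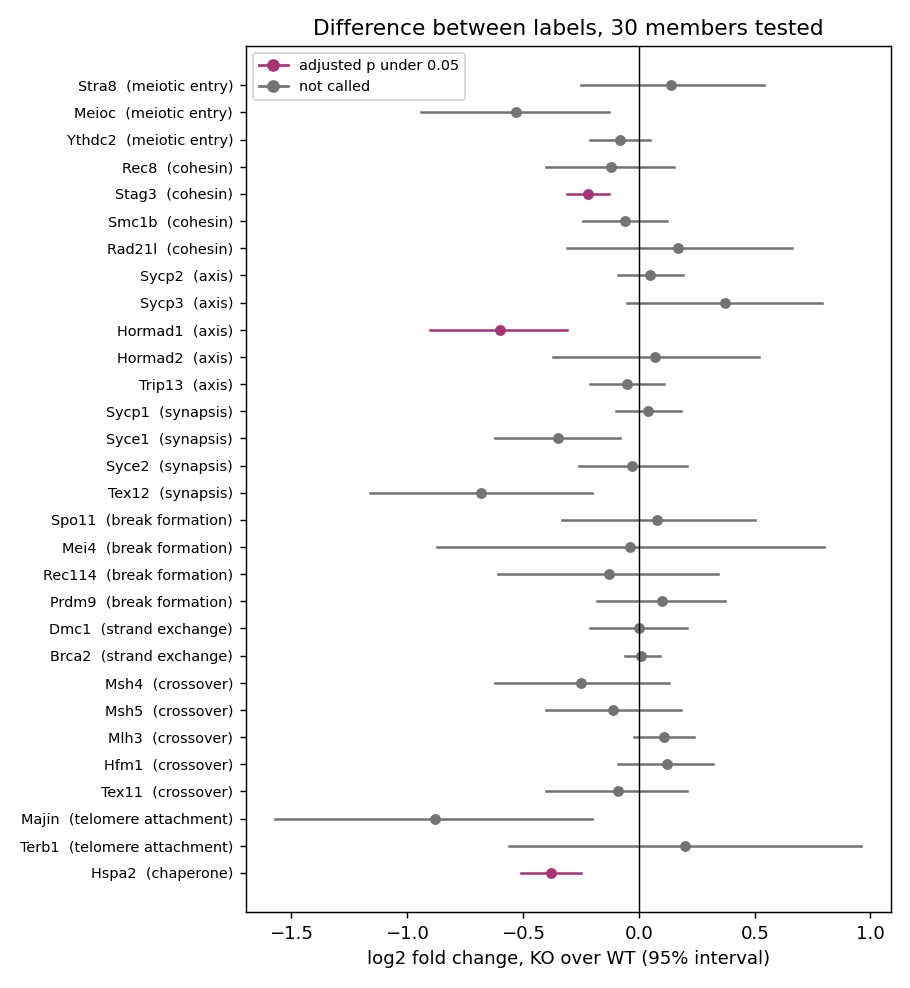
Log2 fold change, KO over WT, with its 95% interval (horizontal axis) for the 30 genes tested, ordered by role. The 3 called genes, Stag3, Hormad1 and Hspa2, lie below 0, and most other intervals cross 0.

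Meiotic entry genes did not pass. Stra8 was at 2.53, 2.33, 2.32 and 1.85 CPM in WT replicates 1 to 4 and at 2.45, 2.27, 2.36 and 2.87 in KO replicates 1 to 4. The groups overlapped, with a log2 fold change of 0.14 and a 95% interval of -0.25 to 0.54 (adjusted p = 0.822). Meioc, whose protein keeps germ cells in meiotic prophase, was at 2.53, 3.32, 2.89 and 2.43 CPM and at 1.90, 2.81, 1.63 and 1.49 CPM. KO replicate 2 lay among the WT values and the other KO libraries below them (log2 fold change -0.53, standard error 0.21, adjusted p = 0.125). Without KO replicate 2, the highest KO library, the log2 fold change was -0.75 (0.0357). With any other library left out, Meioc lay between -0.60 and -0.42, with adjusted p from 0.111 to 0.374. Ythdc2, the gene of its RNA helicase partner, which is also expressed outside the germ line, averaged 24.9 ± 2.40 CPM in WT and 23.7 ± 1.08 CPM in KO libraries (-0.08 on the log2 scale, adjusted p = 0.650).

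Stag3 (ENSMUSG00000036928, chromosome 5, 138280240 to 138312393, plus strand, GRCm38) was the called cohesin gene. It was at 58.6, 57.3, 57.9 and 56.7 CPM in the WT libraries and at 50.1, 51.3, 49.7 and 46.3 CPM in the KO libraries. Every KO library lay below every WT library. The fall was 0.22 on the log2 scale (log2 fold change -0.22, standard error 0.05, edgeR adjusted p = 0.000137), to 0.856 of the WT level. The other cohesin genes did not pass: Rec8 at -0.12 (adjusted p = 0.761), Smc1b at -0.06 (0.844) and Rad21l at 0.17 (0.824), with 95% intervals of -0.40 to 0.15, -0.24 to 0.12 and -0.31 to 0.66.

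Among the axis genes Hormad1 fell. HORMAD1 is a HORMA-domain protein that binds unsynapsed axes and promotes break formation there. Its gene (ENSMUSG00000028109, chromosome 3, 95559677 to 95587671, plus strand) was at 4.45, 6.34, 5.26 and 5.90 CPM in WT libraries and at 3.42, 4.72, 3.31 and 3.13 in KO libraries. KO replicate 2 lay above WT replicate 1, so the groups overlapped, and the other KO libraries lay below all WT libraries. The log2 fold change was -0.60 (standard error 0.15, edgeR adjusted p = 0.00322), to 0.658 of the WT level.

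The other axis genes did not pass. Hormad2, the related gene, was at 0.07 (95% interval -0.37 to 0.52) and Trip13, whose ATPase takes HORMAD proteins off the axis and which dividing cells also use, at -0.05 (-0.21 to 0.11). Sycp2 was at 0.05 (-0.09 to 0.19) and Sycp3 at 0.37 (-0.05 to 0.79; adjusted p = 0.415); their proteins form the lateral elements. The gene Chpt1 on the opposite strand overlaps 52.2% of the exon bases of Sycp3, and whether strand was used in counting is not stated, so its reads may be shared.

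**Figure D4:**
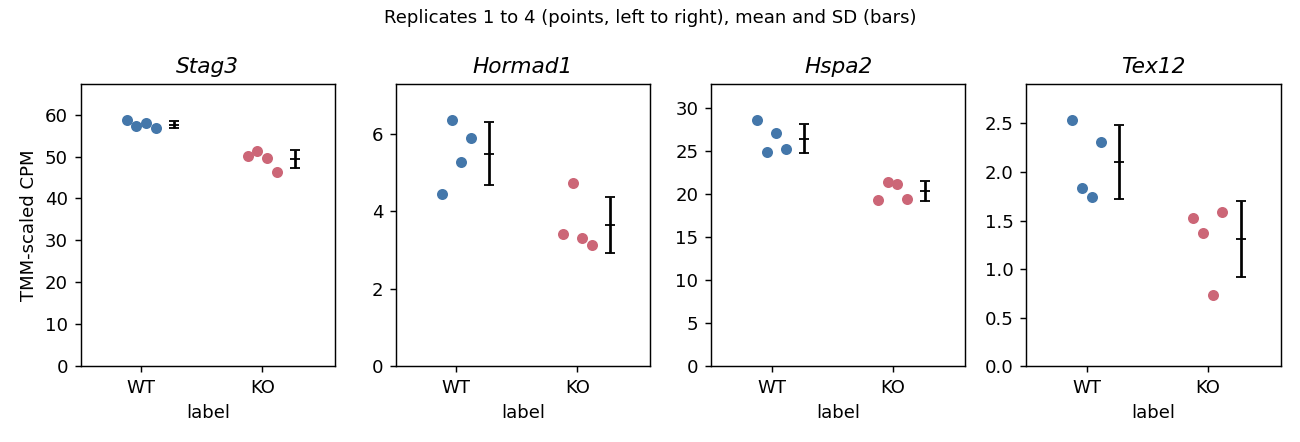
TMM-scaled CPM (vertical axes from 0) of Stag3, Hormad1, Hspa2 and Tex12 in replicates 1 to 4 of each label, with the mean and SD. The labels do not overlap for Stag3, Hspa2 and Tex12, while Hormad1 in KO replicate 2 (4.72) lies above WT replicate 1 (4.45).

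None of the 4 synapsis members tested passed. Tex12 was at 2.53, 1.83, 1.74 and 2.31 CPM in WT libraries and at 1.53, 1.37, 0.735 and 1.59 in KO libraries. The groups did not overlap, and the log2 fold change of -0.68 (standard error 0.25) had an adjusted p of 0.0896. Syce1 was at 6.38, 6.64, 4.32 and 6.48 CPM and at 4.10, 4.78, 4.10 and 5.64 CPM. WT replicate 3 lay among the KO values (log2 fold change -0.35, adjusted p = 0.145). Without that library, the lowest of WT, the log2 fold change was -0.48 (0.0329). With any other library left out, Syce1 lay between -0.46 and -0.29, with adjusted p from 0.063 to 0.372. Syce2 at -0.03 (adjusted p = 0.954) and Sycp1 at 0.04 (0.873) had 95% intervals of -0.26 to 0.21 and -0.10 to 0.18.

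Genes of break formation, strand exchange, crossovers and telomere attachment did not pass either. Spo11, Prdm9, Rec114 and Mei4 were at 0.08, 0.10, -0.13 and -0.04 on the log2 scale, with adjusted p between 0.826 and 0.984. The opposite-strand gene Nptn overlaps 26.9% of Rec114. Mei1, below the filter on low counts, had 21, 8, 19 and 17 counts in WT libraries and 1, 9, 10 and 8 in KO libraries. WT replicate 2 lay among the KO counts. With no filter the log2 fold change of Mei1 was -1.20 (standard error 0.41, adjusted p = 0.117). Without WT replicate 2, the WT library with the fewest Mei1 counts, it passed the filter and was at -1.46 (0.021). With WT replicate 1 or 4 or any KO replicate left out, it lay between -1.38 and -0.87, with adjusted p from 0.0667 to 0.296. Leaving out the lowest WT library by itself widens the difference, so the value of 0.021 is no support for a fall.

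Of the strand exchange genes, Dmc1 was at 9.29 ± 0.665 and 9.30 ± 0.911 CPM, a difference with a 95% interval of -0.21 to 0.21. Brca2, a repair gene of all dividing cells, was at 82.0 ± 3.69 and 82.7 ± 7.07 CPM, with an interval of -0.06 to 0.09. The crossover genes Msh4, Msh5, Mlh3, Hfm1 and the X-linked Tex11 lay between -0.25 and 0.12, with adjusted p from 0.441 to 0.854. Msh4 and Msh5 encode a clamp that stabilises recombination intermediates, Mlh3 a nuclease subunit, Hfm1 a helicase, and Tex11 a factor of crossover formation. Majin, whose protein anchors telomeres in the nuclear envelope, was at 1.44, 0.545, 1.42 and 1.21 CPM and at 1.04, 0.478, 0.210 and 0.769 CPM, with overlapping groups (log2 fold change -0.88, standard error 0.35, adjusted p = 0.138). Terb1 was at 0.20 (95% interval -0.56 to 0.96).

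Hspa2 (ENSMUSG00000059970, chromosome 12, 76404176 to 76406938, plus strand), the gene of the HSP70 chaperone needed by spermatocytes to leave prophase, fell. It was at 28.6, 24.9, 27.1 and 25.3 CPM in WT libraries and at 19.3, 21.5, 21.2 and 19.5 in KO libraries, with no overlap. The log2 fold change was -0.38 (standard error 0.07, edgeR adjusted p = 6.84e-06), to 0.769 of the WT level. Hspa2 is also expressed in somatic cells, and its promoter window held none of the 3 motifs. Related to Ddx4 in the same library, a ratio chosen after the data had been seen, the differences of Stag3, Hormad1 and Hspa2 were -0.19, -0.56 and -0.35 on the log2 scale, with exact two-sided permutation p of 0.0571, 0.0571 and 0.0286, each 0.0571 once adjusted over the 3. None passed this test, which differs from the edgeR test and cannot give a p below 0.0286.

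Within each library, meiotic genes were set against the gene that does the like task in mitotic cells. Such a ratio does not depend on how libraries are scaled, but it can depend on the mix of cells. The libraries held much RNA of somatic testis cells, so reads of the counterparts cannot be assigned to germ cells. The percentages describe whole libraries and not levels within germ cells. Stag3 stood at 33.3, 31.9, 33.4 and 31.1% of the summed level of its mitotic counterparts Stag1 and Stag2 per kilobase in the WT libraries and at 27.4, 29.4, 28.8 and 26.7% in the KO libraries. The groups did not overlap, and the log2 ratio differed by -0.21 (exact two-sided permutation p = 0.0286, the smallest that the 70 splits allow; adjusted over the 9 pairs 0.0858). Hspa2 to Hspa8 had a geometric mean of 4.51% in WT libraries and 3.66% in KO libraries (-0.30), with no overlap and the same p-values. No pair passed after adjustment. A single pair could not have passed it, however clear its difference, because its exact p cannot fall below 0.0286. Stag3 and Hspa2 were already at that p, so a clearer separation could not have lowered their adjusted p. Only more pairs with a low p could have done so. The lack of a pass therefore does not decide whether these ratios differ.

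The other pairs reported gave smaller or overlapping differences. Smc1b stood at 6.32% of Smc1a in WT libraries and 5.68% in KO libraries (-0.16, exact p = 0.0571, adjusted 0.128), and Smc1a itself rose by 0.09 (edgeR adjusted p = 0.00401). Rec8 was at 2.96 and 2.75% of Rad21, Rad21l at 1.44 and 1.68% of Rad21, and Meiob at 1.61 and 1.45% of Rpa1. In contrast, Mlh3 was at 156 and 164% of Pms2. Of the mitotic counterparts, Hspa8 fell by 0.08 (edgeR adjusted p = 0.00201), while Stag1 (0.07, adjusted p = 0.139), Stag2 (-0.09, 0.0809), Rad21 (-0.02, 0.840), Rpa1 (-0.06, 0.704) and Pms2 (0.03, 0.905) did not pass.

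**Figure D5:**
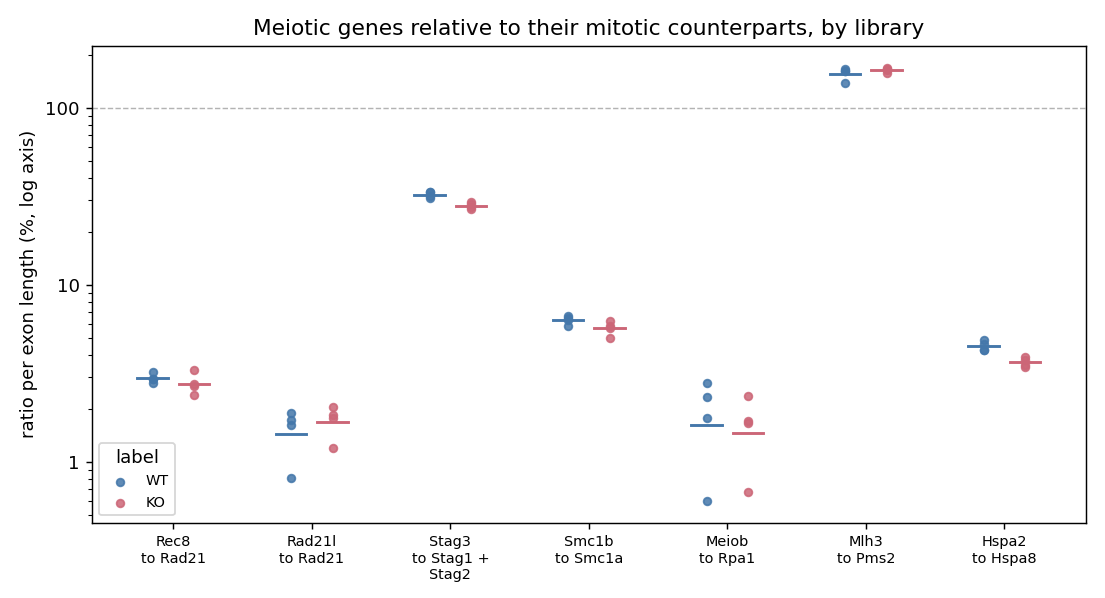
Level of 7 meiotic genes as a percentage of their mitotic counterparts per exon length (vertical log axis) in each library, with the geometric mean of each label. Mlh3 lies above 100%, and the labels do not overlap for Stag3 and Hspa2.

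A further list of 63 genes that act with these in meiosis, named for their roles, was described in the same fit. Of these, 2 rose, 1 fell, 56 did not pass and 4 were not tested, with a median log2 fold change of 0 over the 59 tested. These counts stand beside 2.35% higher and 2.80% lower over all genes tested, a share near that of the list, so they are no result about the list. The risers were Dazl, which encodes a germ-cell RNA-binding protein that licenses meiosis (0.37, edgeR adjusted p = 6.24e-05), and 4930447C04Rik, also called Six6os1, a central element gene. The latter was at 24.7 ± 1.21 CPM in WT libraries and 31.2 ± 1.64 in KO libraries (0.33, adjusted p = 1.58e-05). The gene that fell was Skp1a, a ubiquitin ligase subunit of many cell types that also lies on synapsed axes (-0.13, adjusted p = 0.0157). Leaving out WT replicate 3, KO replicate 1 or KO replicate 4 ended that call, with adjusted p of 0.0841, 0.0765 and 0.0505. Gm4969, also called Meiosin, whose protein acts with STRA8, averaged 12.6 ± 1.02 CPM in WT and 12.8 ± 0.541 CPM in KO libraries (0.03, adjusted p = 0.928). Genes of the repressor complex with E2F6 did not pass: E2f6 was at -0.07, Mga at 0.06, L3mbtl2 at -0.01 and Pcgf6 at 0.17, with adjusted p of 0.595, 0.111, 0.978 and 0.299. In Mga and Pcgf6 every KO library lay above every WT library, as in 4.72% of all genes tested, while E2f6 and L3mbtl2 overlapped. Gm4969 and the 4 genes of the complex were named after their values were seen.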

How the data were processed

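Raw counts of reads per gene were deposited by the authors as 1 table without normalization, with the exon length of each gene in bases, per the file headers. Libraries were made from 1 ng of total RNA with a stranded pico-input kit, per the labels. STAR 2.5.2b, Subread, featureCounts, DESeq2 and the build GRCm38 are named in the submitters' processing notes, without roles; the use of strand and of reads with several positions is not given in the sources used here. Symbols came from GENCODE M21 (55141 of 55487 IDs matched).

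Counts were tested with R 4.3.3 and edgeR 4.0.16 (filterByExpr, TMM, robust quasi-likelihood test, two-sided, Benjamini-Hochberg over all genes tested, called under 0.05); 95% intervals are from the standard error. The test was checked on simulated counts. Ratios to mitotic counterparts had 0.5 added to each count and were tested by exact permutation over 70 splits. Alternatives used DESeq2 1.42.0, limma 3.58.1, other scalings, filters and thresholds, the replicate number as a block, a marker covariate and each library left out. Library totals were 16346977 to 20311338; without molecular identifiers PCR copies count as reads, and count floors cover counting error only. Pairs of libraries within a group differed beyond sampling noise (chi-squared per degree of freedom 1.75 to 5.11).

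Named were all members, Rhox10, the mitotic counterparts (2 of the 9 pairs tested are not reported here), called genes of the further meiotic list, up to 3 called genes per marker list, and Ddx4 and Pou5f1. Members, lists and tests were chosen with earlier results of these data known. Of 65 further meiotic genes listed, 63 matched. Promoter windows are from RefSeq GRCm38.p6.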

Additional observations from a re-analysis of the deposited data

Results flagged for a closer look

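In 3 of 70 groups of 4 libraries a single library of a meiotic gene stood apart by Dixon's test (gap over range above 0.829); chance alone flags about 1 in 20 groups. Syce1 was at 4.32 CPM in WT replicate 3, against 6.38 to 6.64 CPM in the other WT libraries. Tex11 was at 5.15 CPM in WT replicate 4, against 3.77 to 3.95 CPM in the others. Spata22 was at 0.120 CPM in WT replicate 1, which is 2 counts, against 0.0496 to 0.0578 CPM, or 1 count, in the others.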

How the results depend on the processing

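Stag3, Hormad1 and Hspa2 were called lower under all 17 planned refits, with adjusted p of 3.88e-05 to 0.00549, 0.000745 to 0.0416 and 2.57e-06 to 0.000327; no member was called higher. Members called lower numbered 3 or 4. The further one was Mei1, Meioc or Syce1 with the library nearest the other label left out, or Tex12 at an adjusted p under 0.10. With the ratio to Ddx4, an added alternative, the 3 genes were at -0.19, -0.56 and -0.35, against -0.22, -0.60 and -0.38, and did not pass an exact permutation test (adjusted p = 0.0571); both the scale and the test differ there from edgeR's, and which of these ended the calls was not tested. DESeq2 called 794 genes in all, 420 of them lower, and an adjusted p under 0.01 called 678, 365 lower and 313 higher, against 1193, 649 and 544. Library totals in place of TMM gave 836 lower and 426 higher, and upper-quartile scaling 555 and 633. Replicate numbers did not pair the samples: deviations of same-numbered libraries correlated at -0.0043 to 0.0598, and not every library correlated best with its own number. The replicate block called 1249 genes and 3 members. The marker covariate averages lists that moved in opposite directions, and does not measure composition.

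Values near 0 changed sign without a call. Dmc1 went to 0 with DESeq2 size factors and the replicate block, -0.02 with library totals and -0.01 with limma voom; Brca2 went to 0 with library totals, and Spo11 to 0 and Mei4 to 0.06 with limma voom. With single libraries left out, values ranged from -0.03 to 0.31 for Rad21l, 0 to 0.11 for Sycp2, -0.05 to 0.17 for Hormad2, -0.01 to 0.08 for Sycp1, -0.10 to 0.03 for Syce2, -0.07 to 0.29 for Spo11, -0.29 to 0.13 for Mei4, -0.05 to 0.06 for Dmc1, -0.03 to 0.06 for Brca2, -0.15 to 0.01 for Tex11 and -0.01 to 0.40 for Terb1. The cause was not tested. Depth limits the genes with a few counts per library, where only large differences could be seen.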
